A study of Homo sapiens with 6 samples.

Results

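The genes described here belong to the oxidant defence pathway: NFE2L2, which encodes the transcription factor NRF2, its inhibitor KEAP1, and 7 genes commonly counted as NRF2 targets, namely HMOX1, NQO1, GCLC, GCLM, TXNRD1, SRXN1 and SLC7A11. They were chosen by gene symbol, as known parts of the pathway, with earlier results of these data known. They make up 9 of the 40205 genes in the count table. RNA-seq was performed on samples labelled HepG2, a line derived from a human liver tumour. There were 3 untreated libraries (Control-1 to Control-3) and 3 libraries from the CLs-treated group (CLs-1 to CLs-3). CLs are cationic liposomes, positively charged lipid vesicles used to carry nucleic acids and drugs into cells, and here they were made with the lipid DOTAP. The exposure lasted 24 h. The labels give the dose as 120 μM, and the study's text gives the same figure in μM in one place and in μg/ml in others, so the unit of the dose is uncertain. All libraries carry the label of 1 cell line. Nothing in the labels says whether the 3 samples of a group were separate cultures. The p-values therefore measure only the spread between these samples.

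NRF2 is normally held in the cytoplasm by KEAP1, which feeds it to the proteasome. Oxidants and electrophiles modify cysteines of KEAP1, after which NRF2 escapes breakdown, pairs with small MAF proteins in the nucleus and binds antioxidant response elements. NRF2 is thus controlled largely through the stability of the protein, which RNA-seq does not measure. Its targets make glutathione, import cystine for it, keep thioredoxin and peroxiredoxins reduced, and break down heme and quinones.

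The antioxidant response element has the core TGACNNNGC, where N is any base, and both strands were searched for it from 250 bases before to 50 bases after each start site in RefSeq's windows (GRCh38.p14). Of the 9 genes, 7 had a window, with 10 windows among the 7. A match lay in 4 of the 10, at 3 genes (GCLM, KEAP1 and TXNRD1), while 13.3% of all 35116 windows held one. HMOX1 and SLC7A11 were not matched to a window. The letters below are the 250 bases before the start site, 5′ to 3′ along the gene's own strand, for the modifier subunit of glutathione synthesis, the inhibitor of NRF2 and the thioredoxin reductase, with each match in capitals. GCLM is at chr1:93909431-93909680 on the minus strand, KEAP1 at chr19:10502772-10503021 on the minus strand and the TXNRD1 start shown at chr12:104286782-104287031 on the plus strand.
GCLM: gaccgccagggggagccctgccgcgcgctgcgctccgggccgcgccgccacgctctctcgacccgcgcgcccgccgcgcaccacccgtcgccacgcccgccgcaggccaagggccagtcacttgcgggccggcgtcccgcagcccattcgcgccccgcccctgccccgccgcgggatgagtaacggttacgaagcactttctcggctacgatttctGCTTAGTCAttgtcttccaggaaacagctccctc
KEAP1: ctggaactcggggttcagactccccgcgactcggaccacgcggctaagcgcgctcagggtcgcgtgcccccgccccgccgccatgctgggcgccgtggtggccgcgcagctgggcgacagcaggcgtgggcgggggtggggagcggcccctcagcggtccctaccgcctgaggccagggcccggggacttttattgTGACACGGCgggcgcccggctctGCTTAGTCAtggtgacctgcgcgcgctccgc
TXNRD1: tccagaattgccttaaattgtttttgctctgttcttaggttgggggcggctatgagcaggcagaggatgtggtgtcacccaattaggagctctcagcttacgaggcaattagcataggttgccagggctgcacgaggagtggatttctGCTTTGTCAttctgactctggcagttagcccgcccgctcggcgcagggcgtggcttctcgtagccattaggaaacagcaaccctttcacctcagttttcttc
The match of GCLM began 34 bases before the start site and read GCTTAGTCA, the core on the opposite strand. KEAP1 held the same letters beginning 31 bases before its start site, and TGACACGGC beginning 54 bases before it. The TXNRD1 window shown held GCTTTGTCA beginning 102 bases before the start site. Another TXNRD1 window, not shown, held TGACTTCGC and GCTCCGTCA, beginning 99 and 8 bases before its start site. A match describes the letters only and is not evidence of binding. A window without a match says nothing of the sequence outside it.

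Between 11418527 and 13998946 reads per library were counted on genes, so that 3 counts corresponded to 0.214 to 0.263 CPM (counts scaled to a common library total), and every value of a member lay far above this. The lowest was 177 reads, for HMOX1 in Control-3. The defining markers of liver cells were nearly absent: 17 to 22 of 24 liver genes had 3 counts or fewer in each library other than CLs-1, where 9 did, and albumin (ALB) had 0 counts in those 5 libraries and 8 in CLs-1. The samples are therefore named by their label only. CLs-1 stood apart in another way, with 35 genes of at least 30 counts that exceeded the next library more than 8 times, against 0 or 1 such gene in any other library. Its summed CPM was 38.6 over the liver list (18.8 to 25.6 in the others), 68.9 over 10 blood and steroid gland genes (1.27 to 2.91) and 973.0 over 10 fibroblast and stromal genes (713.3 to 1102). TFR2 alone held 194 to 261 of the 222 to 292 liver counts in the other libraries, and 233 of 540 in CLs-1. COL3A1 alone had 647.5 to 974.0 CPM over all libraries. Of the 10 stromal genes, 1 had 3 counts or fewer in CLs-1, against 6 or 7 in each other library. The part of the transcripts that set CLs-1 apart in the members' values was not tested, and each difference of the 9 genes is also given without CLs-1. In bulk RNA, fewer cells and less RNA per cell cannot be told apart.

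All 7 targets had a higher mean level in the CLs-treated group than in the controls, by 1.21 on the log2 scale for HMOX1 and by 0.29 to 0.82 for the others. NFE2L2 and KEAP1 themselves differed by −0.08 and 0.10. None of the 9 genes passed the test at an adjusted p under 0.05 with a fold above 1.5 or below 0.67 (edgeR quasi-likelihood, Benjamini-Hochberg over 15047 genes). Of all genes tested 0.0864% passed. DESeq2 also called 0 of the 9, and 0.413% of all genes. With shares this small, 0 of 9 does not set these genes apart from the rest. Without adjustment 5 of the 9 (HMOX1, GCLC, NQO1, SLC7A11 and SRXN1) had p under 0.05 in edgeR and were higher, against 2.19% of all genes. The median log2 difference of the 9 genes was 0.59, beside 0.01 over all genes tested. The controls were not alike for these genes, however: Control-3, singled out for its low HMOX1, was also the lowest of the 6 libraries for 5 of the 6 other targets. For these 5 the difference was smaller without it, which follows from leaving out their lowest control.

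**Figure D1:**
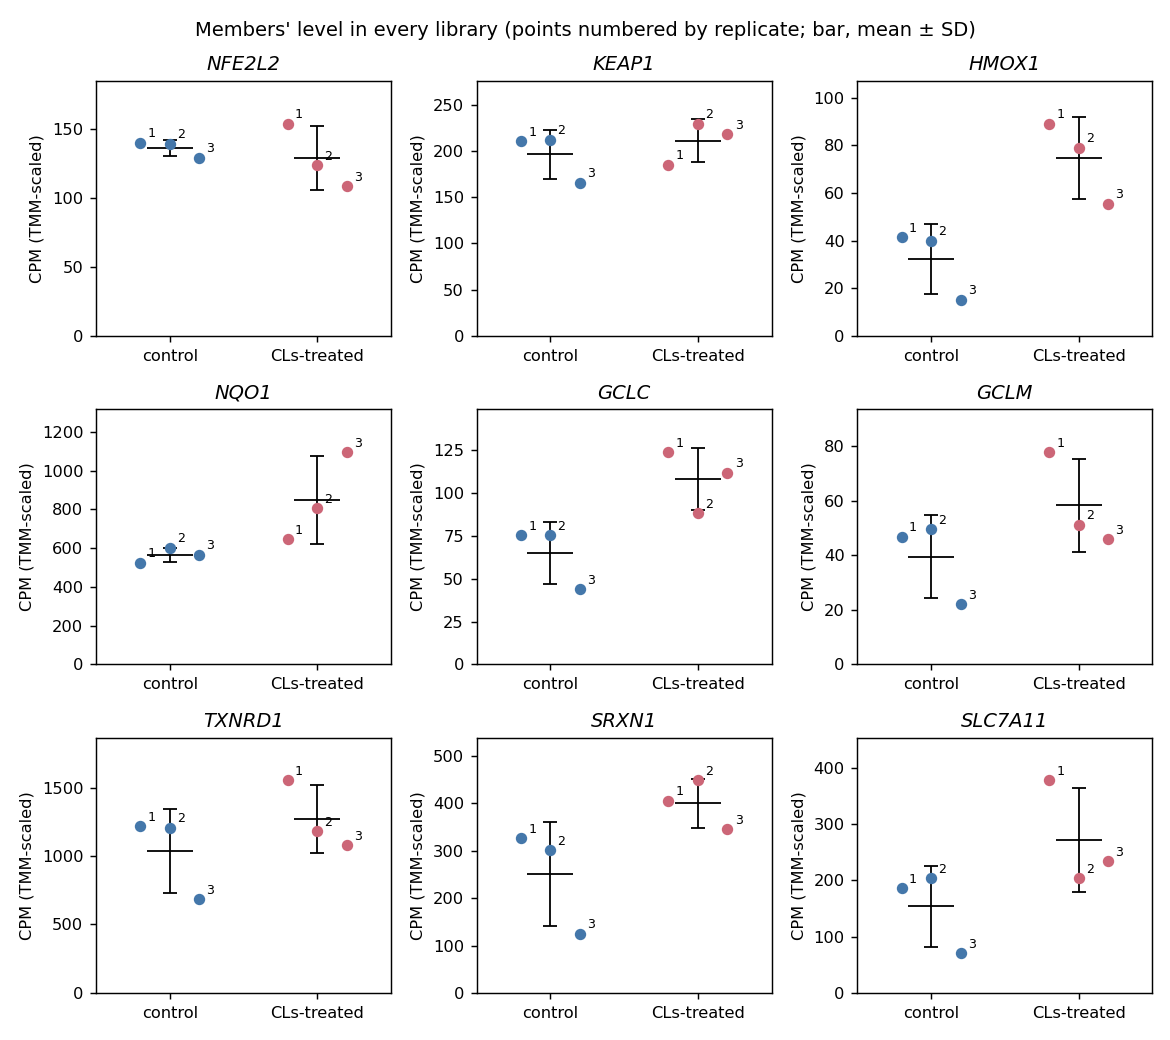
Level of each of the 9 genes (vertical axes, CPM after TMM scaling, starting at 0) in the 3 control libraries (blue) and the 3 CLs-treated libraries (red), with points numbered by replicate and the mean ± SD as a bar. Control-3 is the lowest point of HMOX1, GCLC, GCLM, TXNRD1, SRXN1 and SLC7A11 but not of NQO1, and NFE2L2 and KEAP1 differ little between the groups.

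NFE2L2 was measured at 140.3, 139.8 and 129.5 CPM in the controls and at 154.3, 123.9 and 108.6 CPM after CLs, with libraries given in the order of their replicate numbers here and below. The groups overlapped, with the CLs-treated group holding both the highest and the lowest library. The log2 difference of −0.08 had a 95% interval of −0.41 to 0.25 (edgeR adjusted p = 0.998). An increase of the NRF2 transcript beyond 0.25 on the log2 scale therefore lay outside this interval. The difference was −0.12 without Control-3 and −0.23 without CLs-1.

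KEAP1 had 210.6, 212.1 and 165.5 CPM in the controls and 184.8, 229.5 and 217.9 CPM after CLs. These groups overlapped too, and Control-3 was the lowest library. The log2 difference was 0.10, with an interval of −0.22 to 0.43 (edgeR adjusted p = 0.998), and it was −0.0037 without Control-3 and 0.19 without CLs-1. The ratio of NFE2L2 to KEAP1 CPM was 0.666, 0.659 and 0.782 in the controls and 0.835, 0.540 and 0.499 in the CLs-treated libraries. The ratios overlapped, and their log2 difference of −0.20 was within the spread (two-sided exact permutation test, p = 0.5, and 0.6 after adjustment over the 2 ratios tested). With 3 libraries against 3, this test cannot give a p below 0.1.

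HMOX1 encodes heme oxygenase 1, which splits heme into biliverdin, iron and carbon monoxide. Its level was 41.4, 40.0 and 15.2 CPM in the controls (477, 463 and 177 reads) and 89.1, 78.9 and 55.5 CPM after CLs (1287, 913 and 634 reads). The lowest CLs-treated library lay above the highest control, and Control-3 was far below the other two controls. The mean was 74.5 ± 17.2 CPM against 32.2 ± 14.8 (SD, n = 3 each), 2.32-fold higher by the edgeR fit, with a log2 difference of 1.21 ± 0.31 (SE). Its edgeR p was 0.00261, the 136th smallest of all genes tested, and its adjusted p was 0.288. Without Control-3 the log2 difference was 0.87 (adjusted p = 0.230), without CLs-1 it was 1.06, and without both it was 0.72 (adjusted p = 0.0896). With replicate number added to the edgeR fit as a block, it was 1.30 ± 0.18 (SE; adjusted p = 0.00468). HMOX1 then passed, among 68 of 15047 genes, but the labels do not say whether the libraries were paired. When genes with few counts were kept in the test, the adjusted p was 0.000543 for HMOX1 and 0.0249 for GCLC, so that these 2 genes passed, as did 0.672% of all genes then tested. Both are also among the genes the study selected from these same libraries, so their values here are not independent evidence. That setting also called 9 of the tissue genes checked (APOA1, APOE, COL1A2, GREM1, THY1, CYP11A1, HBA2, HBB and STAR), named after their values were seen.

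NQO1, a quinone reductase widely used as a readout of NRF2, had 525.1, 601.3 and 565.8 CPM in the controls. After CLs it had 647.3, 805.2 and 1096 CPM. The groups did not overlap, the controls lay close together, and the CLs-treated libraries spread more widely, with CLs-3 the highest. The log2 difference was 0.59 ± 0.19 (SE; edgeR adjusted p = 0.462), and it was also 0.59 without Control-3. It was larger without CLs-1, at 0.75, and smaller without CLs-3, at 0.36. In Control-3 the NQO1 level was 1.00 times the mean of the other controls.

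GCLC and GCLM encode the catalytic and the modifier subunit of glutamate-cysteine ligase, which makes the rate-limiting step of glutathione synthesis. GCLC had 75.3, 75.3 and 44.0 CPM in the controls and 123.9, 88.2 and 111.7 CPM after CLs. The groups did not overlap, with Control-3 the lowest library, and the log2 difference was 0.73 ± 0.21 (edgeR adjusted p = 0.351). It was 0.52 without Control-3 and 0.62 without CLs-1. GCLM had 46.8, 49.6 and 22.1 CPM in the controls and 77.9, 51.3 and 46.0 CPM after CLs. Here the groups overlapped, since CLs-3 lay just under Control-1, and the log2 difference of 0.57 had an interval of −0.06 to 1.19. It was 0.28 without Control-3, 0.30 without CLs-1 and 0.01 without both. The ratio of GCLC to GCLM CPM ran from 1.52 to 1.99 in the controls and from 1.59 to 2.43 after CLs, with overlapping groups (log2 difference 0.15, two-sided exact permutation p = 0.6). A change in the balance of the subunits was not detectable beyond the spread between libraries.

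SLC7A11 encodes the cystine importer xCT, which supplies the cysteine for glutathione. It had 186.2, 204.1 and 70.9 CPM in the controls and 377.4, 203.5 and 234.4 CPM after CLs. CLs-1 was high, Control-3 was low, and CLs-2 lay just below Control-2, so the groups overlapped. The log2 difference was 0.82 ± 0.34 (SE; edgeR adjusted p = 0.775), and it was 0.48 without Control-3, 0.51 without CLs-1 and 0.17 without both.

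TXNRD1, the cytosolic thioredoxin reductase, had 1217, 1208 and 685.6 CPM in the controls and 1552, 1182 and 1080 CPM after CLs. Both CLs-2 and CLs-3 lay below Control-1 and Control-2. The log2 difference of 0.29 had an interval of −0.20 to 0.79 (edgeR adjusted p = 0.983), was 0.07 without Control-3 and 0.13 without CLs-1, and turned to −0.10 without both. SRXN1 encodes sulfiredoxin, which repairs over-oxidised peroxiredoxins, and it had 326.9, 300.6 and 125.0 CPM in the controls and 405.7, 448.2 and 345.5 CPM after CLs. The groups of SRXN1 did not overlap, although Control-3 was again far below the other controls. Its log2 difference was 0.67 ± 0.29 (SE; edgeR adjusted p = 0.801), and it was 0.35 without Control-3 and 0.66 without CLs-1.

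HMOX1, NQO1, GCLC and SRXN1, 4 of the 9 genes, had every CLs-treated library above every control, as did 5.34% of all genes tested, and 0 had the reverse. Each of the 4 gave a two-sided exact permutation p of 0.1, the smallest that 3 against 3 allows. It follows that these 4 were also above Control-1 and Control-2 alone, and no other member was so in all 3 CLs-treated libraries. The median log2 difference of the 9 genes was 0.35 without Control-3, 0.51 without CLs-1 and 0.17 without both. Without both libraries NQO1 and HMOX1 had the largest differences among the 9, at 0.76 and 0.72, and 7 of the 9 genes did not overlap between the groups (5 higher and 2 lower), but so did 45.8% of all genes tested, in either direction.

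**Figure D2:**
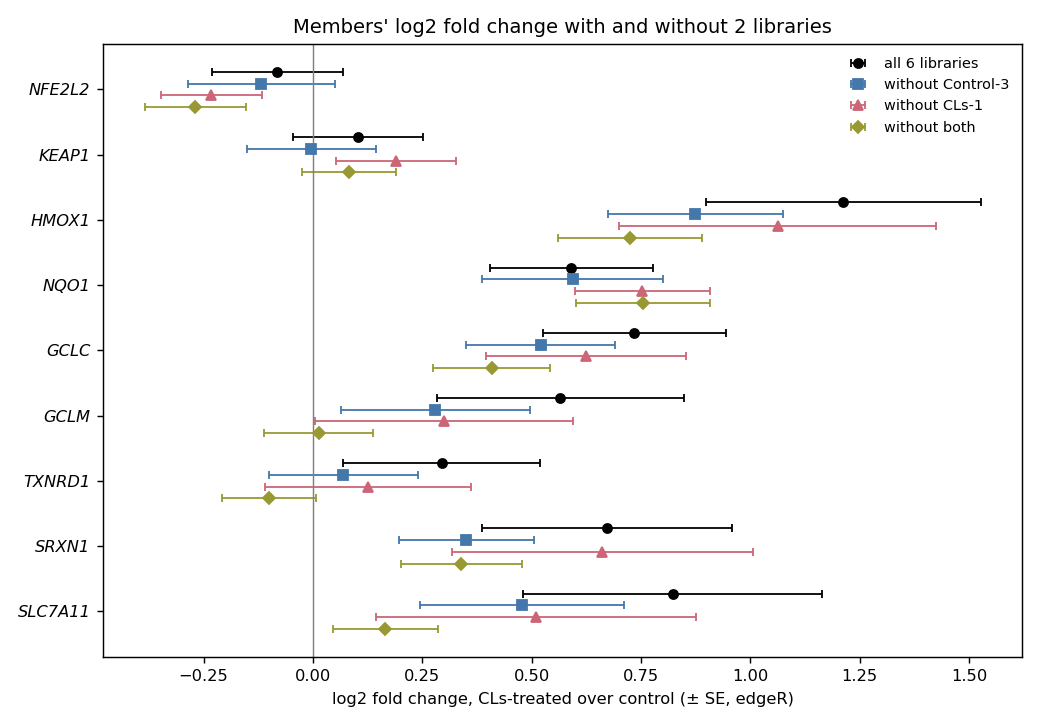
Log2 difference of each gene, CLs-treated over control, with its standard error (horizontal axis, edgeR), from all 6 libraries (black circles), without Control-3 (blue squares), without CLs-1 (red triangles) and without both (olive diamonds). HMOX1 goes from 1.21 to 0.72 and GCLM from 0.57 to 0.01 when both libraries are left out, whereas NQO1 goes from 0.59 to 0.76.

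Control-3 was examined apart because HMOX1 was low in it. Its CPM, as a share of the mean of Control-1 and Control-2, was 0.373 for HMOX1, 0.363 for SLC7A11 and 0.398 for SRXN1. It was 0.459 for GCLM, 0.565 for TXNRD1 and 0.584 for GCLC, against 0.783 for KEAP1, 0.924 for NFE2L2 and 1.00 for NQO1. Leaving aside HMOX1, by which the library was chosen, 5 of the 8 other genes had under 0.7 of the other controls' level there, compared with 9.06% of all genes tested. Control-3 was the lowest of the 6 libraries for 6 of these 8, where 22.0% of all genes had their lowest value in that library. Control-1 and Control-2 differed little from each other for these genes, by at most 0.20 on the log2 scale. CLs-1 was the highest library for 6 of the 9 genes, NFE2L2 among them, but it held 0.681 times the mean NQO1 level of CLs-2 and CLs-3. The total counts of the controls were similar (11620295 in Control-3 against 11784181 and 11714498), but the 10 most abundant genes took 7.93% of the counts in Control-3, against 5.77% and 6.25% in Control-1 and Control-2. Over all genes Control-3 differed from Control-1 and Control-2 by a chi-square per gene of 34.98 and 19.96, and those 2 from each other by 8.26. CLs-1 stood as far from its own group, at 30.83 from CLs-2 and 28.28 from CLs-3, which differed from each other by 8.83. The part of the difference of Control-3 over all genes in the members' low values was not tested.

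**Figure D3:**
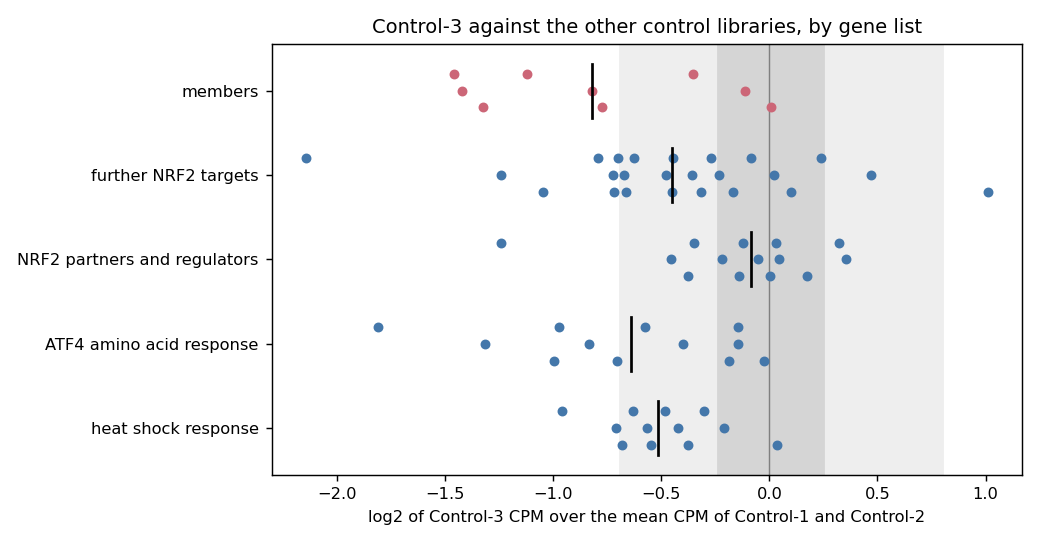
Log2 of the CPM in Control-3 over the mean of Control-1 and Control-2 (horizontal axis) for each gene of 5 lists (points, with the list's median as a bar), over the middle 50% (dark grey) and 90% (light grey) of all genes tested. The median is −0.82 for the 9 genes and −0.45 for the further NRF2 targets, and the ATF4 and heat shock lists lie low as well, at −0.64 and −0.52.

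Other stress gene lists, also written with earlier results known, were low in Control-3 too. Of 12 genes of the amino acid response driven by the transcription factor ATF4, 7 had under 0.7 of the other controls' level in Control-3, and of 12 heat shock genes 6 did. The median of the heat shock list was 0.10 on the log2 scale between the groups and −0.05 without Control-3, and that of the ATF4 list went from 0.27 to 0.12. Among the most abundant members, SLC3A2, the partner chain of xCT, had 767.7, 731.8 and 503.4 CPM in the controls and 848.8, 1030 and 703.4 CPM after CLs, which overlapped (log2 difference 0.37). ATF4 itself, at 443.3 ± 88.2 CPM in the controls and 446.7 ± 83.9 after CLs (SD, n = 3 each), differed by 0.01. SLC7A5, which trades amino acids across the membrane with SLC3A2, differed by −0.07, and PHGDH, the first enzyme of serine synthesis, by 0.26. The chaperones HSPA8, HSP90AA1, HSPD1 and HSPA1B differed by 0.14, 0.19, 0.08 and 0.26. No gene of either list was called by edgeR or DESeq2. In edgeR 1 of the ATF4 list and 0 of the heat shock list had an unadjusted p under 0.05, beside 874 of all 15047 genes tested.

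A longer list of NRF2 targets was read beside these. It was written with earlier results of these data known, so its counts are a description and not independent evidence. Of 25 genes, 24 had enough reads to test (GPX2 had too few) and all 24 had a higher mean in the CLs-treated group, where 7832 of 15047 genes tested did. None was called by edgeR, 8 had an unadjusted p under 0.05 and were higher (2.19% of all genes), 7 had groups that did not overlap (5.34% of all genes), and the median log2 difference was 0.37. That median was 0.33 without Control-3 and 0.52 without CLs-1, so it moved less than the median of the 9 genes did when Control-3 was left out. Control-3 was the lowest library for 17 of the 24, and for 22.0% of all genes tested. DESeq2 called 2 of them, the aldo-keto reductases AKR1B10 and AKR1C3, and 0.413% of all genes. With no filter on low counts edgeR called 4 (ABCC2, AKR1B10, AKR1C2 and AKR1C3), and 0.672% of all genes. Without Control-3 and CLs-1 it called 2 (AKR1C2 and FTL), among 102 of 15114 genes tested. Of these, all but FTL were named after their values were seen. AKR1B10 was low, at 1.65, 2.85 and 1.46 CPM in the controls and 8.72, 2.68 and 7.62 CPM after CLs, and its groups overlapped. AKR1C3 had 462.3, 700.3 and 334.9 CPM in the controls and 742.3, 1082 and 979.3 CPM after CLs, with no overlap and a log2 difference of 0.90 in edgeR. AKR1C genes are similar in sequence, to differing degrees, so the division of reads among them is uncertain.

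Ferritin, which stores the iron that heme oxygenase releases, was among the most abundant of them. Its light chain FTL had 3156, 3564 and 2120 CPM in the controls and 3022, 5170 and 5202 CPM after CLs. CLs-1 lay below Control-1 and Control-2 while CLs-2 and CLs-3 lay above all controls (log2 difference 0.60, edgeR adjusted p = 0.769). The heavy chain FTH1 had the same order of groups, with a log2 difference of 0.36. SQSTM1, the p62 adaptor that removes KEAP1 by autophagy, had 2431, 2428 and 1026 CPM in the controls and 3221, 3544 and 2807 CPM after CLs. Its groups did not overlap, and Control-3 was low for it as for HMOX1 (log2 difference 0.70, edgeR adjusted p = 0.747). TKT, an enzyme of the pentose phosphate pathway that renews NADPH, differed by 0.04. Reads of FTL and FTH1 may be shared with pseudogenes, since the handling of reads that match several places is not given in the sources used here.

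**Figure D4:**
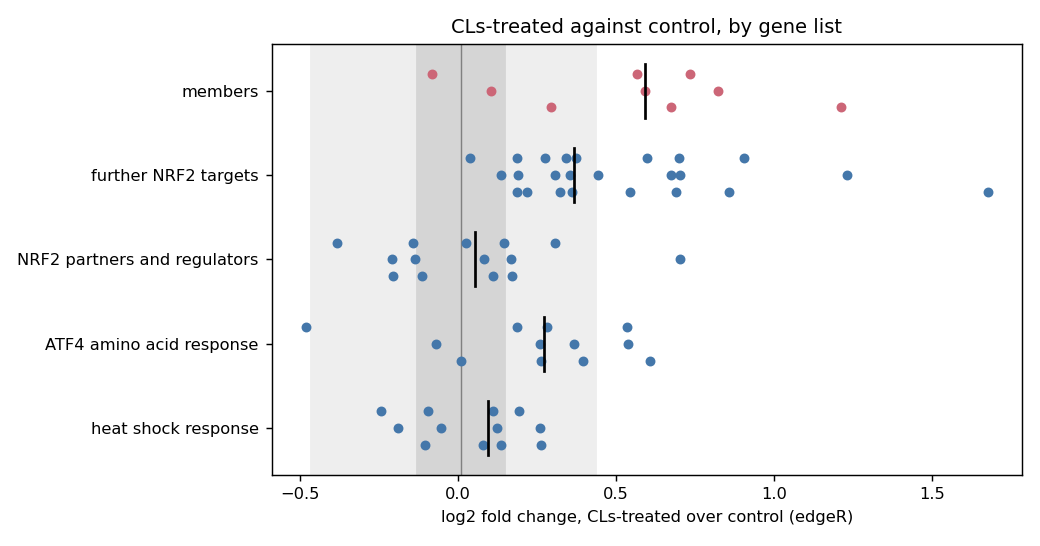
Log2 difference, CLs-treated over control (horizontal axis, edgeR), for each gene of the same 5 lists (points, with the list's median as a bar), over the middle 50% (dark grey) and 90% (light grey) of all genes tested. All 24 further NRF2 targets lie above 0 with a median of 0.37, and the partners and regulators of NRF2 run from −0.38 (MAFK) to 0.70 (SQSTM1) with a median of 0.05.

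The partners and regulators of NRF2 differed less. Of 14 genes, 8 had a higher and 6 a lower mean after CLs, and the median log2 difference was 0.05. None was called by edgeR or DESeq2. In edgeR 2 of them, SQSTM1 included, had an unadjusted p under 0.05, beside 874 of all 15047 genes tested. NFE2L1, the relative of NRF2 that governs proteasome genes, had 388.1 ± 8.16 CPM in the controls and 395.0 ± 25.6 after CLs (SD, n = 3 each). MAFG, a small MAF protein that pairs with NRF2, differed by 0.17 on the log2 scale, and the coactivator EP300 by −0.14. SQSTM1 belongs to this list too.

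The order of the members' levels was compared per kilobase of exon (union of exons, GENCODE 29). In the controls TXNRD1 and NQO1 stood highest, at 205.5 and 180.6 CPM per kb, followed by SRXN1 at 93.0, KEAP1 at 62.1 and NFE2L2 at 30.1. HMOX1 at 17.7, SLC7A11 at 15.9, GCLC at 10.2 and GCLM at 8.06 CPM per kb were the lowest of the 9. The ranges over libraries of TXNRD1 and NQO1 overlapped, as did those of SRXN1 and KEAP1, and those of each neighbouring pair from HMOX1 down to GCLM. KEAP1 and NFE2L2 did not overlap, and NFE2L2 lay above HMOX1 in every control. After CLs HMOX1 reached 40.9 CPM per kb against 28.5 for NFE2L2. Their ranges of 30.5 to 48.9 and 24.0 to 34.1 overlapped, but HMOX1 lay above NFE2L2 in each of the 3 CLs-treated libraries.

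Among 9895 genes with a mean of at least 10 CPM, the log2 CPM of 5 genes followed that of HMOX1 most closely over the 6 libraries, by Pearson's r: L3HYPDH (0.989), MAT2A (0.988), TRIB3 (0.988), GBE1 (0.986) and UBXN8 (0.985). GBE1, the glycogen branching enzyme, had 71.8, 70.3 and 54.8 CPM in the controls and 99.8, 88.9 and 82.0 CPM after CLs. MAT2A, which makes S-adenosylmethionine, had 418.9, 404.3 and 339.7 CPM and then 469.7, 453.6 and 444.7 CPM. Each of the 5 genes was lowest in Control-3, which follows largely from choosing them by their match to HMOX1. Among the members, r with HMOX1 was 0.965 for SRXN1, 0.930 for GCLM, 0.928 for SLC7A11, 0.926 for GCLC and 0.888 for TXNRD1. It was 0.605 for KEAP1, 0.456 for NQO1 and 0.102 for NFE2L2. These values describe 6 points that share the same libraries, 2 groups and the low Control-3, and carry no test.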

How the data were processed

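RNA was sequenced single-end on an Ion Proton in 3 control and 3 CLs-treated libraries, all labelled HepG2. Reads were aligned by the authors with MapSplice. The submitters' processing notes name HTSeq 0.6.1 and the builds hg19 and GRCh37. The deposited values are counts, the whole number of reads per gene symbol, without normalization, and all 6 columns were used. Strand setting is not given in the sources used here. The depth per library is in the report, and a floor of 3 counts covers the error of counting alone.

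The groups were compared with edgeR 4.0.16 (R 4.3.3), by the quasi-likelihood test on group after filterByExpr and TMM scaling. A call needed an adjusted p (Benjamini-Hochberg) under 0.05 and a fold above 1.5 or below 0.67. CPM are TMM-scaled. Standard errors were derived from the F statistic. The 9 genes and all lists were chosen with earlier results of these data known. The text names all 9 genes, the 4 most abundant testable genes of each other list and any called, and the 5 genes most correlated with HMOX1. Alternatives were DESeq2 1.42.0, other scalings, other filters, no fold criterion, a replicate block and omission of single libraries, and leaving out Control-3 and CLs-1 together was added after seeing the data. On simulated data the edgeR step called 7.6% of genes changed by a fold of 1.5 (14838 genes), 66.8% at a fold of 2 (14858 genes) and 95.4% at a fold of 4 (14852 genes). Of the calls made, 11.8%, 6.3% and 7.4% were false at these folds, each above the adjusted p threshold of 0.05. The draw was not repeated at any fold, so whether this excess goes beyond the noise of a draw was not tested.

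Of the label checks, only TFR2 and VTN of 24 liver genes, COL3A1, COL1A1 and PDGFRB of 10 stromal genes and CYP11A1 of 10 blood and steroid gland genes had enough reads to test, and edgeR called none of them (of these CYP11A1 had an unadjusted p of 0.0129), nor did DESeq2. With no filter on low counts, edgeR called 2, 3 and 4 genes of these lists.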

Additional observations from a re-analysis of the deposited data

How the results depend on the processing

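Over all genes 13 were called, against 105 with DESeq2, 8 with library totals alone, 171 with no filter on low counts, 68 with the replicate block, 102 without Control-3 and CLs-1, and 3 to 7 with 1 library left out. Of the 9 genes, 2 were called with no filter (HMOX1 and GCLC) and 1 with the replicate block (HMOX1, log2 difference 1.30, edgeR adjusted p = 0.00468), and 0 under the other alternatives. The setting with no filter also called 2 liver, 3 stromal and 4 blood and steroid gland genes of the label checks. Of the further NRF2 targets the replicate block called 1 (AKR1C2). Without both libraries, 7 of the 9 had groups that did not overlap, beside 45.8% of all genes in either direction, and the median log2 difference of the 9 was 0.17. With single libraries left out, KEAP1 ran from −0.0037 (without Control-3) to 0.19, and NFE2L2 from −0.23 to 0.028 (without CLs-3). Their signs turned there, as did that of TXNRD1 without both libraries (−0.10), and the cause was not tested. Libraries of the 2 groups share replicate numbers. The deviations of same-numbered libraries correlated at 0.111, 0.0987 and 0.305, and those of other pairs at −0.201 to 0.0783. Each library thus correlated best with its own number. The labels do not say whether the numbers pair the libraries, so the fit without a block and the blocked fit are both given. In simulation 7.6% of genes changed by a fold of 1.5 were called. A call also needed an estimated fold above 1.5 or below 0.67, which many genes changed by just that fold miss. The simulation also held no library that stood apart. What was detectable at that fold in these libraries was therefore not tested.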
